A study of Mus musculus with 12 samples.

Results

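This account covers 10 genes that are used as marks of monocytes and neutrophils entering injured tissue: Lyz2, S100a8, S100a9, Lgals3, Fcgr4, Fpr2, Clec4e, Clec4d, Msr1 and Itgam. They were chosen by name, and 9 of them are among the 11289 genes of the deposited table. The expression of Clec4e was not analysed here. RNA-seq was performed on liver tissue of 12 C57BL/6J mice, aged 8 to 10 weeks per the labels, in 3 groups of 4. Control mice had no Con A, and the sources used here do not say whether they received another injection. Con A + PBS mice received Con A (concanavalin A, a jack bean lectin used to provoke T cell hepatitis) at 15 mg/kg into the tail vein and PBS 30 min later. Con A + hWJ-MSCs mice received the same dose of Con A and, 30 min later, human mesenchymal stromal cells from the Wharton's jelly of the umbilical cord in PBS, 2000000 per mouse per the labels. Livers were taken 24 h later. The study's methods give a younger age and fewer cells than the labels do. Con A hepatitis is an acute model driven by a single dose, and the cells are human cells in mice with an intact immune system.

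In acute hepatitis, circulating neutrophils and monocytes leave the sinusoids and join Kupffer cells, the resident macrophages of the liver. Neutrophils and classical monocytes carry the calcium-binding proteins S100A8 and S100A9, which pair as calprotectin, and the integrin CD11b (Itgam), which pairs with Itgb2 for firm adhesion. Lysozyme (Lyz2), the scavenger receptor MSR1 and the IgG receptor FcγRIV (Fcgr4) are made by infiltrating phagocytes and by Kupffer cells alike, so in whole liver their RNA has more than 1 possible source. FPR2 senses formyl peptides and other chemoattractants, CLEC4D and CLEC4E are C-type lectin receptors of myeloid cells, and LGALS3 (galectin-3) is a sugar-binding protein of macrophages.

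The value for each gene and mouse is a score, a whole number that the authors had already normalized between mice, so that every mouse has the same median score of 352 and the depth of sequencing is unknown. Scores were compared as log2(score + 1) with limma, and calls required a fold change above 1.5 together with p below 0.05 after Benjamini-Hochberg adjustment over all genes. Each gene of the table reaches a score of 64 in at least 2 mice. S100a8, S100a9 and Clec4d reached 64 in 0 control mice and are in the table only through the Con A groups, so they had to differ and their calls are given as a description. The other 6 genes reached it in 2 or more control mice. Whether scores were scaled to gene length is not given in the sources used here, so levels were compared between groups and not between genes. In these bulk livers, fewer cells of a type and less RNA per cell cannot be told apart. On the first 2 principal components of all genes, Con A + PBS mouse 4 lay at -55.2 on the second, where the other Con A + PBS mice lay between -15.0 and 7.57. Con A + PBS mouse 4 was lowest of its group for 5 of the 9 genes (Lyz2, S100a8, S100a9, Fcgr4 and Clec4d) and highest for 2 (Fpr2 and Itgam).

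The 9 genes did not move as 1 group after Con A. In Con A + PBS versus control livers 6 were called higher (S100a8, S100a9, Clec4d, Lgals3, Itgam and Fpr2), where 19.5% of all genes were called higher. Lyz2 was called lower, where 19.2% of all genes were called lower, and Fcgr4 and Msr1 were not called. Among the 6 genes with adequate scores in control livers, 3 were called higher and 1 lower, beside 16.6% higher and 20.5% lower of the 10566 genes of the table that reach 64 in 2 control mice. The name of recruited cell genes goes against the values of Lyz2, which fell, and was not borne out by a call for Fcgr4 and Msr1. These 3 genes scored 66 or more in every control liver. The plot of scores by mouse shows all 9 genes.

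**Figure D1:**
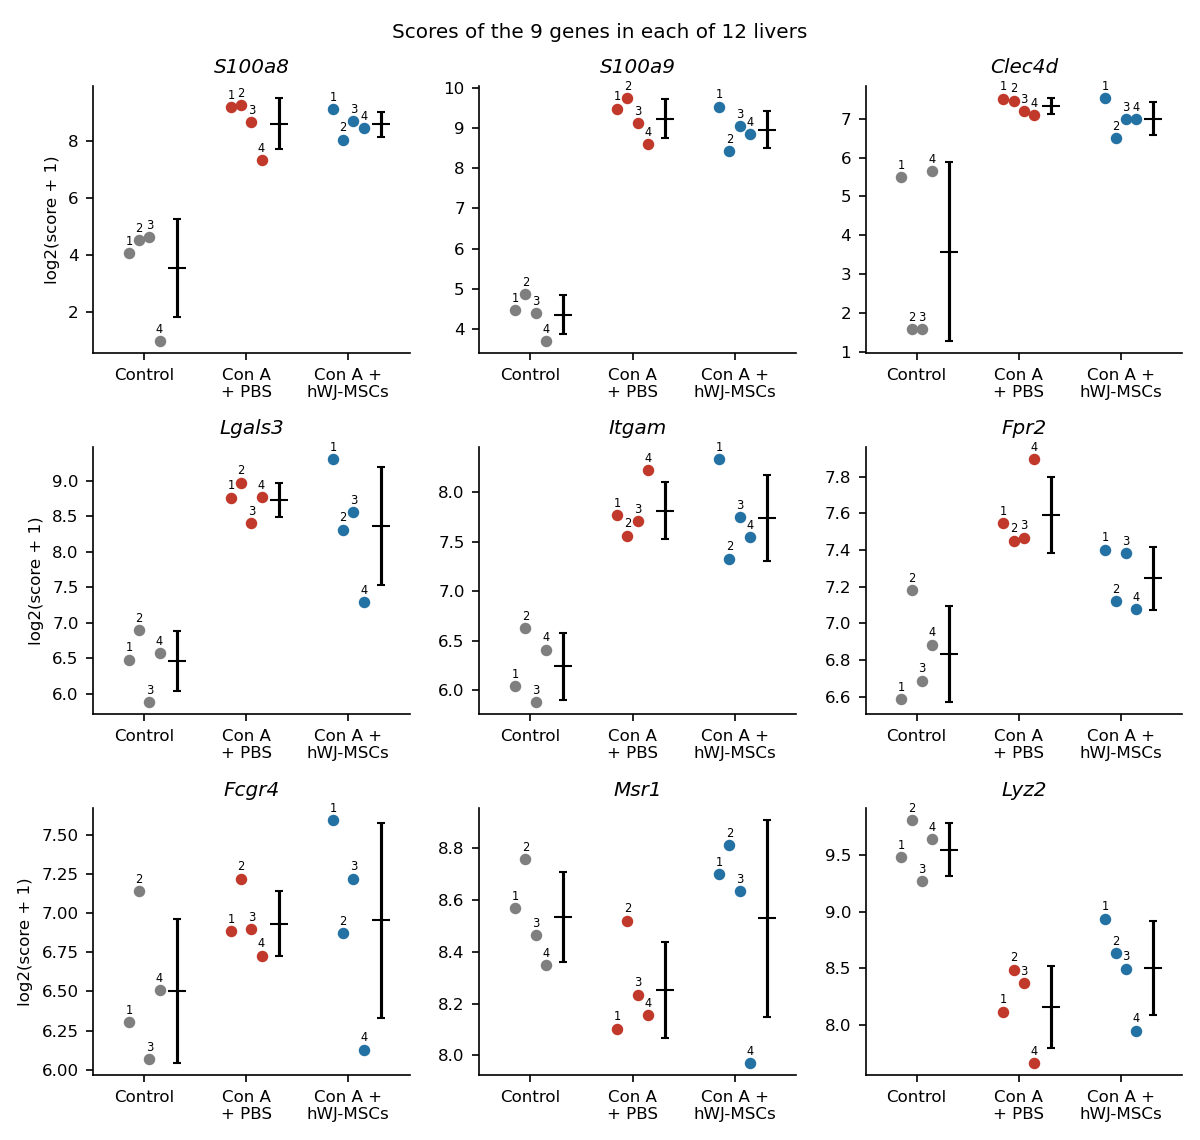
Scores of the 9 genes in 12 livers. Each point is 1 mouse with its replicate number, on a log2(score + 1) axis that differs between panels and does not start at 0, and the bars give mean and SD of 4 mice. S100a8, S100a9, Clec4d, Lgals3, Itgam and Fpr2 lie higher in all Con A + PBS livers than in all control livers, and Lyz2 lies lower, where groups without overlap were found for 27.06% of all genes in the higher and 23.35% in the lower direction.

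S100a8 and S100a9 were low in control livers and high in both Con A groups. S100a8 scored 16, 22, 24 and 1 in control mice 1 to 4, 588, 614, 411 and 160 in Con A + PBS mice and 563, 266, 419 and 354 in Con A + hWJ-MSCs mice. S100a9 scored 21, 28, 20 and 12 in control mice, 717, 860, 555 and 390 in Con A + PBS mice and 744, 344, 529 and 460 in Con A + hWJ-MSCs mice. For both genes every Con A mouse, with or without cells, was above every control mouse, and the Con A groups overlapped each other. The log2 fold change of S100a9 in Con A + PBS versus control was 4.89 (SE 0.30, adjusted p = 2.13e-07), a 29.6-fold difference. That of S100a8 was 5.06 (SE 0.70, adjusted p = 7.64e-05), or 33.3-fold, with a wider error, and its control mouse 4 had a score of 1. Without control mouse 4 the log2 fold change of S100a8 was 4.20, and with a pseudocount of 10 it was 4.10. S100a9 minus S100a8 on the log2 scale was 0.62 ± 0.45 in Con A + PBS mice and 0.79 ± 1.31 in control mice (SD, n = 4 each), where the control value rests on scores near 0.

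S100a8 and S100a9 are neighbours on chromosome 3, 22.6 kb apart on opposite strands. In the mm10 annotation S100a8 lies at chr3:90669071-90670034 on the plus strand and S100a9 at chr3:90692632-90695711 on the minus strand, and no other annotated gene overlaps either. Lyz2, the gene that fell, lies at chr10:117277334-117282274 on the minus strand. The promoters of these 3 genes, 250 bases before to 50 after the start (RefSeq, GRCm38.p6), are shown for a neighbouring pair that was called higher and for the gene that was called lower. They were searched on both strands for GAGGAAG (PU.1) and TTGCNNAA (C/EBP), the cores bound by master regulators of myeloid genes, and for GGGNNTTCC (NF-kB) and TGANTCA (AP-1). Capitals mark a match. S100a8 (chr3:90668821-90669120, plus strand) holds a PU.1 match on its opposite strand whose first base lies at -171 from the start, S100a9 (chr3:90695672-90695971, minus strand) holds a C/EBP match whose first base lies at -236, and Lyz2 (chr10:117282223-117282522, minus strand) holds none.
S100a8: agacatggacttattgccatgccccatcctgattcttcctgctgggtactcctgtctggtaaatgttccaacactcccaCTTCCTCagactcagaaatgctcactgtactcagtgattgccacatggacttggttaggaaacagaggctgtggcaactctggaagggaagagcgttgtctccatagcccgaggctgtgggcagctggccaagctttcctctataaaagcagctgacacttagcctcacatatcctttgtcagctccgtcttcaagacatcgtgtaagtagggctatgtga
S100a9: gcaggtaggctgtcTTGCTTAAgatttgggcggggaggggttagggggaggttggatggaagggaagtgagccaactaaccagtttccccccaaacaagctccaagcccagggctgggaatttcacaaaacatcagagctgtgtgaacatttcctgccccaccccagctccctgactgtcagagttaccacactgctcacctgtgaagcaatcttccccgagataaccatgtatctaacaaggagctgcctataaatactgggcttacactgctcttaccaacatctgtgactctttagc
Lyz2: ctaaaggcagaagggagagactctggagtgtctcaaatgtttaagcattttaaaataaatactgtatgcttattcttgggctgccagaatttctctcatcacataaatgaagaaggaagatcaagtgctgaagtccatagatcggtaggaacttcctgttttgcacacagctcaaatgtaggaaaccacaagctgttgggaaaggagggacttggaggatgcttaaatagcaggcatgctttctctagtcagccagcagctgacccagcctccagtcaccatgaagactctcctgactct
Of the 9 listed genes with a promoter in this table, which include Clec4e, 4 held the PU.1 match (S100a8, Fcgr4, Clec4d and Itgam), 2 the C/EBP match (S100a9 and Clec4e), 0 the NF-kB or AP-1 match, and 3 none of them (Lyz2, Lgals3 and Fpr2). Of 32851 mouse promoters of the same length, 13.6% hold the PU.1 match, 10.8% the C/EBP match, 5.82% the NF-kB match and 7.81% the AP-1 match. A match is a run of letters and not a measured binding site, and Fcgr4, which was not called, holds the same PU.1 letters as S100a8.

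Lyz2, which encodes the lysozyme of phagocytes, fell after Con A. It scored 714, 896, 616 and 796 in control mice, 277, 358, 330 and 202 in Con A + PBS mice and 490, 396, 360 and 246 in Con A + hWJ-MSCs mice. All control mice were above all Con A mice. On the log2 scale Lyz2 changed by -1.39 after Con A (SE 0.22, adjusted p = 2.04e-04), which is 2.62-fold lower. The difference of S100a8 and Lyz2 within a liver was -5.99 ± 1.80 in control and 0.46 ± 0.62 in Con A + PBS mice on the log2 scale (SD, n = 4 each), a description only, since S100a8 had to be low in control livers. In mice a close relative, Lyz1, can share reads with Lyz2, and Lyz1 was not analysed here.

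Kupffer cell markers moved beside Lyz2. Of 19 measured Kupffer cell markers 14 were called lower, 3 higher and 2 neither in Con A + PBS versus control livers. Of all genes 19.2% were called lower and 19.5% higher. The markers had a median log2 fold change of -1.94, beside 0.05 over all genes. Clec4f, a lectin specific to Kupffer cells, scored 1598, 1646, 1282 and 1578 in control mice and 44, 76, 43 and 43 in Con A + PBS mice, with a log2 fold change of -4.90 (SE 0.37, adjusted p = 9.09e-07). Vsig4, a complement receptor of Kupffer cells, changed by -4.54 on the log2 scale (SE 0.44, adjusted p = 5.26e-06). The summed score of the 19 markers ranged from 12758 to 16974 in control, 8303 to 10632 in Con A + PBS and 8138 to 10402 in Con A + hWJ-MSCs mice, and none of the 19 was at 0 in every mouse of a group. Their part in the Lyz2, Msr1 and Fcgr4 values was not tested.

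Clec4d (chr6:123262107-123275268, plus strand) encodes a C-type lectin receptor that binds mycobacterial glycolipid. It scored 44, 2, 2 and 49 in control mice, 182, 176, 146 and 136 in Con A + PBS mice and 184, 90, 126 and 126 in Con A + hWJ-MSCs mice. The control mice fell into a pair near 0 and a pair near 50, and all were below all Con A mice. The log2 fold change in Con A + PBS versus control was 3.74 (SE 0.82, adjusted p = 0.00208) with a 95% interval from 1.96 to 5.52. The size of this change depended on the control mice: it was 3.08 without control mouse 2 or without control mouse 3, 4.38 without control mouse 1, 4.43 without control mouse 4 and 2.70 with a pseudocount of 10, and the gene was called each time.

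Lgals3 (chr14:47367751-47380418, plus strand) and Itgam (chr7:128062640-128118490, plus strand) had measurable scores in control livers and rose. Lgals3 scored 88, 118, 58 and 94 in control mice, 432, 500, 336 and 434 in Con A + PBS mice and 630, 316, 376 and 155 in Con A + hWJ-MSCs mice. After Con A it rose by 2.27 on the log2 scale (SE 0.34, adjusted p = 1.48e-04), or 4.81-fold. All Con A mice were above all control mice, and the Con A + hWJ-MSCs mice spread on both sides of the Con A + PBS mice. Itgam scored 65, 98, 58 and 84 in control mice, 217, 188, 208 and 298 in Con A + PBS mice and 322, 160, 214 and 186 in Con A + hWJ-MSCs mice. It rose by 1.57 on the log2 scale after Con A (SE 0.23, adjusted p = 1.16e-04), or 2.98-fold, again without overlap with control mice. Itgam shares exon sequence on the same strand with the annotated gene Gm49368, so reads may be divided between them and its level is uncertain.

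Itgb2, the partner chain of CD11b, rose as well. Its scores were 90, 168, 92 and 139 in control mice, 210, 352, 192 and 186 in Con A + PBS mice and 237, 216, 181 and 129 in Con A + hWJ-MSCs mice. The log2 fold change of Itgb2 after Con A was 0.94 (SE 0.26, adjusted p = 0.00924). The difference of Itgam and Itgb2 within a liver shifted by 0.64 on the log2 scale after Con A (two-sided exact permutation p = 0.143). In Con A + hWJ-MSCs versus control it shifted by 0.85 (exact permutation p = 0.0286, the smallest that 4 against 4 can give, adjusted p = 0.0857 over 9 pair tests). The 9 include S100a8 minus Lyz2, in which S100a8 had to be low in control livers. With so few mice the adjusted value cannot decide whether the chains changed unequally.

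Fpr2 rose by a smaller amount. It scored 95, 144, 102 and 117 in control mice, 186, 174, 176 and 237 in Con A + PBS mice and 168, 138, 166 and 134 in Con A + hWJ-MSCs mice. The rise after Con A was 0.76 on the log2 scale (SE 0.15, adjusted p = 0.00131), or 1.69-fold, which a fold change threshold of 2 would not call. Fpr2 (chr17:17887824-17893952, plus strand) shares exon sequence with the annotated gene Fpr3 on the same strand, so its level is uncertain too. The formyl peptide receptor gene Fpr1 lies 3.9 kb away and scored 60, 100, 54 and 62 in control mice, 58, 64, 45 and 37 in Con A + PBS mice and 49, 32, 44 and 24 in Con A + hWJ-MSCs mice. Fpr1 was not called after Con A (log2 fold change -0.42, adjusted p = 0.225). The mean difference of Fpr2 and Fpr1 within a liver was 0.75 ± 0.19 in control and 1.92 ± 0.53 in Con A + PBS mice on the log2 scale (SD, n = 4 each). This pair and the next were chosen after their values were seen, so their differences are given as a description, with no test.

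The values of Clec4d and of a neighbour are set side by side. Clec4n (dectin-2), a related lectin receptor 15.1 kb away on chromosome 6, scored 160, 172, 156 and 150 in control mice, 122, 148, 123 and 68 in Con A + PBS mice and 130, 140, 148 and 102 in Con A + hWJ-MSCs mice. The change of Clec4n after Con A was -0.52 on the log2 scale (SE 0.21, adjusted p = 0.0487), under the fold threshold. All Con A + PBS mice scored lower for Clec4n and higher for Clec4d than all control mice. The mean difference of Clec4d and Clec4n within a liver was -3.75 ± 2.35 in control and 0.51 ± 0.35 in Con A + PBS mice on the log2 scale (SD, n = 4 each). Clec4d is in the table only through Con A mice. Between the Con A groups, cells against PBS, the mean difference of Clec4d and Clec4n differed by -0.53 and that of Fpr2 and Fpr1 by 0.12. These neighbouring genes are plotted by mouse.

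**Figure D2:**
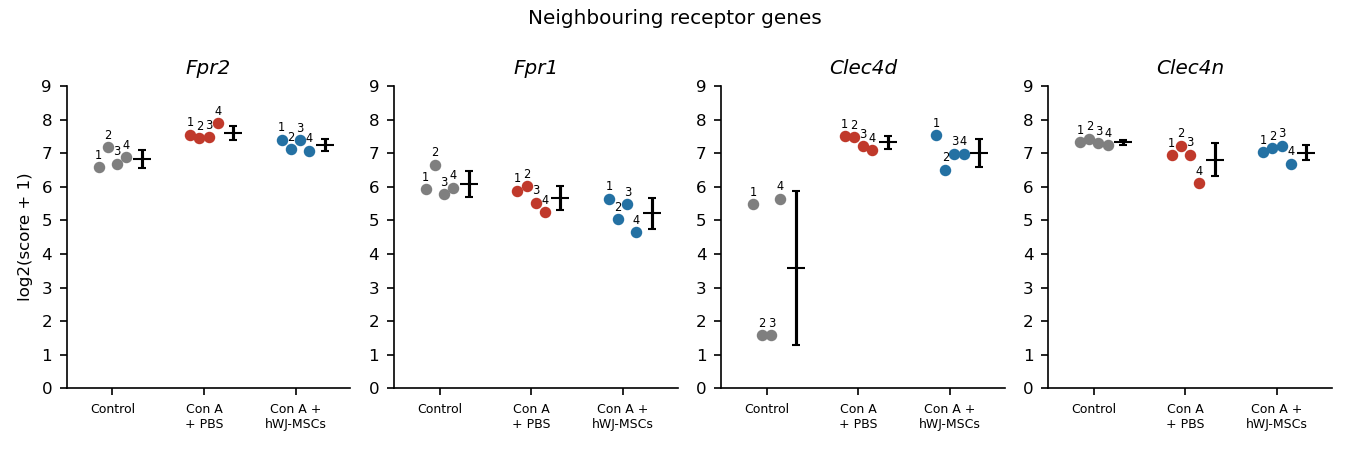
Scores of Fpr2 and its neighbour Fpr1, and of Clec4d and its neighbour Clec4n, in 12 livers. Points are mice with their replicate numbers on a log2(score + 1) axis, and bars give mean and SD of 4 mice. In Con A + PBS livers Fpr2 and Clec4d lie above all control livers, and Fpr1 and Clec4n do not.

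Fcgr4 (chr1:171018920-171029761, plus strand) and Msr1 (chr8:39581700-39642678, minus strand) were not called in Con A + PBS versus control. Fcgr4 scored 78, 140, 66 and 90 in control mice, 117, 148, 118 and 105 in Con A + PBS mice and 192, 116, 148 and 69 in Con A + hWJ-MSCs mice. The log2 fold change of Fcgr4 was 0.43 with a 95% interval from -0.21 to 1.06 (adjusted p = 0.231). Msr1 scored 378, 431, 352 and 325 in control mice, 274, 366, 300 and 284 in Con A + PBS mice and 414, 448, 396 and 250 in Con A + hWJ-MSCs mice. That of Msr1 was -0.28 with an interval from -0.65 to 0.09 (adjusted p = 0.185). For both genes the groups overlapped. Scara5, another scavenger receptor, scored 7, 18, 37 and 22 in control and 629, 414, 463 and 301 in Con A + PBS mice, and like S100a8 it is in the table only through Con A mice.

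The members were then set against general leukocyte genes of the same livers. The mean log2 level of 18 pan-leukocyte genes was 7.29 ± 0.21 in control mice, 7.98 ± 0.25 with Con A + PBS and 7.99 ± 0.25 with Con A + hWJ-MSCs (SD, n = 4 each). Relative to that mean, Lgals3 shifted by 1.58, Itgam by 0.89, Lyz2 by -2.08 and Msr1 by -0.97 on the log2 scale in Con A + PBS versus control (two-sided exact permutation p = 0.0286 for each, the smallest that 4 against 4 can give, and 0.0551 after adjustment over 27 tests). For S100a8, S100a9 and Clec4d, which are in the table only through Con A mice, the shifts of 4.37, 4.20 and 3.06 are a description. Fpr2 shifted by 0.07 (exact permutation p = 0.857) and Fcgr4 by -0.26 (p = 0.0571). After adjustment 0 of the 27 shifts passed 0.05. The 27 include those of S100a8, S100a9 and Clec4d, so the adjusted values rest in part on genes that had to be low in control livers. With 0.0286 as the smallest possible p, this count cannot decide whether the members followed the general leukocyte genes. In Con A + PBS versus control 12 of 18 hepatocyte markers were called lower and 0 higher. Of 12 endothelial markers 7 were called lower and 1 higher, and 1 of 2 measured B cell markers was called lower. Of all genes 19.5% were called higher and 19.2% lower. All 7 measured T and NK cell markers were called higher, and none of these reached 64 in 2 control mice. Their part in the values of the 9 genes was not tested.

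With hWJ-MSCs in place of PBS after Con A, 0 of the 9 genes were called by limma, at the adjusted p as well as at an unadjusted p below 0.05 with the same fold change, where 4.20% of all genes were called higher and 4.38% lower. The log2 fold changes ranged from -0.36 for Lgals3 to 0.34 for Lyz2. For S100a9 the value was -0.27 with a 95% interval from -0.92 to 0.37, for S100a8 -0.02 from -1.53 to 1.48 and for Clec4d -0.32 from -2.10 to 1.46. For Itgam it was -0.08 from -0.57 to 0.42. Of the 9 intervals that of Itgam alone lay within a fold change of 1.5 in both directions, and that of Lgals3 ran from -1.10 to 0.38. Of the 9 genes Fpr2 alone did not overlap: its Con A + hWJ-MSCs scores of 134 to 168 were below the Con A + PBS scores of 174 to 237, with a log2 fold change of -0.35 (interval from -0.68 to -0.01, unadjusted p = 0.0445, adjusted p = 0.134). Groups that do not overlap in this direction were found for 11.6% of all genes. Lyz2 (0.34, interval from -0.13 to 0.82, adjusted p = 0.279) and Msr1 (0.28, interval from -0.10 to 0.65, adjusted p = 0.273) had values above 0 without a call.

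The mice of the Con A + hWJ-MSCs group differed among themselves. Mouse 1 was highest of its group for 8 of the 9 genes, all but Msr1. Mouse 4 was lowest for Lyz2, Lgals3, Fcgr4, Fpr2 and Msr1, and mouse 2 for S100a8, S100a9, Clec4d and Itgam. S100a9 minus S100a8 was nearly the same in these 4 mice, 0.37 ± 0.03 on the log2 scale (SD). Without mouse 4 the log2 fold change of Lgals3 against Con A + PBS mice was 6.60e-04 in place of -0.36. Over all 12 mice, taken around their group means, the 36 pairs of members had a median Pearson r of 0.215, with 13 pairs above 0.5 and 7 below 0. This is a description of 12 livers that were normalized together.

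Con A + hWJ-MSCs versus control livers are given beside the first comparison, with which they share the control mice. Here 5 genes were called higher (S100a8, S100a9, Clec4d, Lgals3 and Itgam), where 13.6% of all genes were called higher. Lyz2 was called lower, where 13.1% of all genes were. S100a8, S100a9 and Clec4d are in the table only through Con A mice and had to be higher, so their calls are a description. Among the 6 genes with adequate scores in control livers, Lgals3 and Itgam were called higher and Lyz2 lower. Of the 10566 such genes of the table, 1162 were called higher and 1470 lower. The log2 fold changes were 5.03 for S100a8 (SE 0.70, adjusted p = 1.60e-04), 4.62 for S100a9 (SE 0.30, adjusted p = 7.12e-07) and 3.43 for Clec4d (SE 0.82, adjusted p = 0.00564). Those of Lgals3 (1.91, adjusted p = 9.58e-04) and Itgam (2.83-fold on the linear scale, adjusted p = 3.27e-04) were smaller, and Lyz2 was lower by -1.05 (SE 0.22, adjusted p = 0.00250). Without control mouse 4 the value of S100a8 was 4.18, and without single control mice that of Clec4d ranged from 2.76 to 4.12. Fpr2, at 0.41 and an adjusted p of 0.0493, was under the fold threshold of 1.5. Msr1 stood at -0.01 (adjusted p = 0.984). Fcgr4 stood at 0.45 (adjusted p = 0.240), and without Con A + hWJ-MSCs mouse 4 it was called higher at 0.72 (adjusted p = 0.0418). The fold changes and their intervals are plotted for the 3 comparisons.

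**Figure D3:**
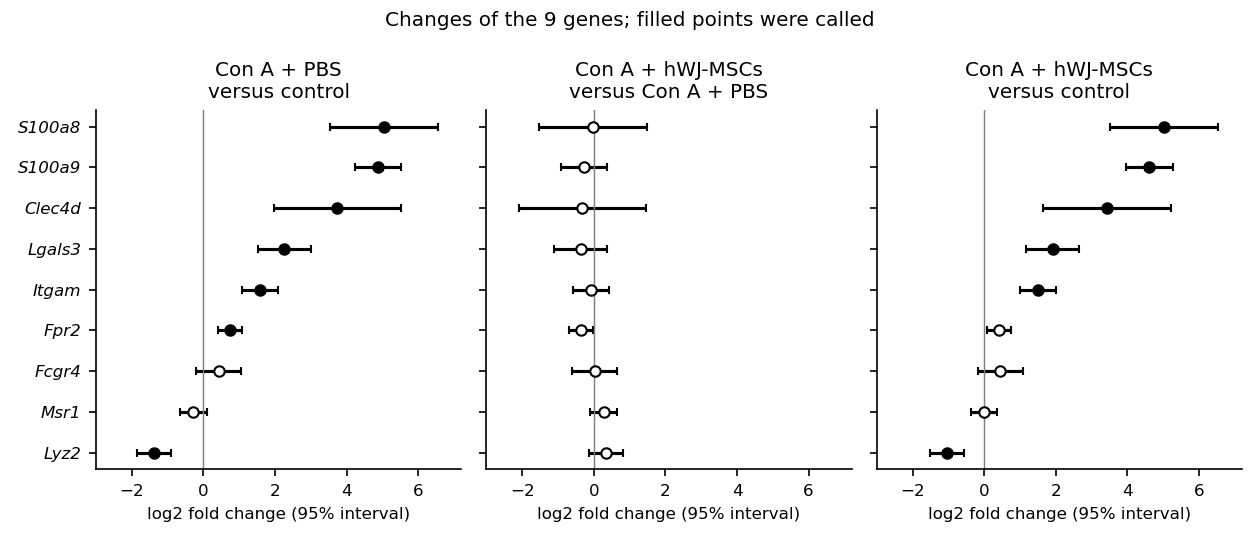
Log2 fold changes of the 9 genes in 3 comparisons from the limma fit of 12 mice. Points are fold changes of log2(score + 1), bars are 95% intervals, and filled points were called. In the middle panel, cells against PBS, no point is filled, and S100a8 and Clec4d have the widest intervals.

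Most measured neutrophil markers were called higher after Con A, as S100a8 and S100a9 were. Of 25 listed neutrophil markers 14 were measured, and 10 of those reached 64 in fewer than 2 control mice, so most of the list could be seen only where it rose. Of the 4 that could be seen in control livers, 3 were called higher and 1 lower, beside 16.6% higher and 20.5% lower of all such genes. Ngp, a granule protein, scored 0, 0, 0 and 3 in control mice, 164, 170, 128 and 274 in Con A + PBS mice and 62, 40, 67 and 123 in Con A + hWJ-MSCs mice. Ltf (lactoferrin) was listed at 0 in every control mouse, at 62 to 82 in Con A + PBS mice and at 28 to 74 in Con A + hWJ-MSCs mice. The defining markers Ly6g, Mpo, Elane and Camp were not analysed here. Csf3r and Cxcr2, receptors for granulocyte colony-stimulating factor and for CXC chemokines, were called higher after Con A, at 1.08 (adjusted p = 0.00167) and 2.71 (adjusted p = 2.16e-05) on the log2 scale, and both are among the 10 that were low in control livers. Between the Con A groups 0 of the 14 markers were called with hWJ-MSCs (limma at the adjusted p, and 1 higher and 5 lower at an unadjusted p below 0.05 with the same fold change), with a median log2 fold change of -0.76, or -0.21 over the 4 that could be seen in control livers, beside 0.00 over all genes. Ngp (-1.38, adjusted p = 0.0803) and Cxcr2 (-0.52, adjusted p = 0.256) did not pass. Cxcr2 and Ltf reached 64 in fewer than 2 Con A + hWJ-MSCs mice and are in the table only through Con A + PBS mice. The minimum score therefore favours lower values with hWJ-MSCs for them, and the median of -0.76 includes both.

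Of 23 measured monocyte and macrophage markers 18 were called higher after Con A and 1 lower, beside 19.5% higher and 19.2% lower of all genes. Of the 12 that could be seen in control livers 7 were called higher, 1 lower and 4 neither, with a median log2 fold change of 0.72. Of all genes that could be seen there 16.6% were called higher and 20.5% lower. Ccr2, the chemokine receptor of classical monocytes, scored 142, 178, 150 and 133 in control mice and 242, 257, 246 and 246 in Con A + PBS mice, a log2 fold change of 0.72 (SE 0.13, adjusted p = 5.38e-04). Nos2 (inducible nitric oxide synthase) scored 441, 211, 198 and 550 in Con A + PBS mice and 92, 22, 76 and 46 in Con A + hWJ-MSCs mice. With hWJ-MSCs against PBS 4 markers of this list were called lower, Nos2 (-2.59, adjusted p = 0.0324), Gpnmb (-1.32, adjusted p = 0.0398), Cd14 (-1.33, adjusted p = 0.0188) and Thbs1 (-1.26, adjusted p = 0.0245), and 0 higher, where 4.38% of all genes were called lower. All 4 are in the table only through Con A mice. Of the 12 markers that could be seen in control livers 0 were called by limma with hWJ-MSCs (1 lower at an unadjusted p below 0.05), with a median log2 fold change of -0.02. Ccr2 was not among them (0.13, adjusted p = 0.508). Cd14 and Thbs1 were named after their values were seen.

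**Figure D4:**
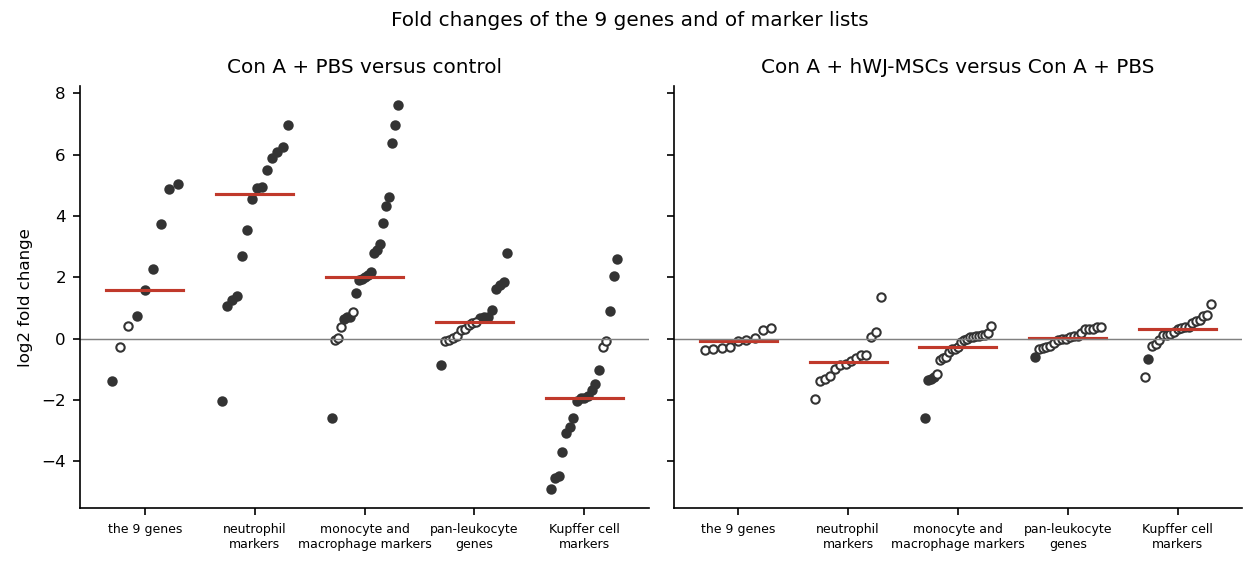
Log2 fold changes of the 9 genes and of genes in 4 marker lists, after Con A (left) and with hWJ-MSCs against PBS (right). Each point is a gene, filled where called, and red lines are medians. The 9 genes run from -1.39 to 5.06 in the left panel, where Kupffer cell markers have a median of -1.94 and neutrophil markers a median of 4.73, a list of which 10 of 14 genes passed the minimum score only through Con A mice.

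Several of these receptors signal through shared adaptors of myeloid cells, and 2 of these adaptors and the kinase Syk were not called higher. Tyrobp (DAP12) was called lower in Con A + PBS versus control, at -0.85 on the log2 scale (SE 0.17, adjusted p = 0.00107). It scored 161, 192, 153 and 136 in control mice and 96, 100, 90 and 70 in Con A + PBS mice. Fcer1g, the chain through which FcγRIV signals, stood at 0.02 (adjusted p = 0.955), and the kinase Syk at -0.11 (adjusted p = 0.678). Of 26 measured partners and adaptors 8 were called higher and 3 lower, with a median log2 fold change of 0.07 beside 0.05 over all genes. Of the 22 that could be seen in control livers 6 were higher and 3 lower, beside 16.6% higher and 20.5% lower of all such genes. Anxa2 (annexin A2), which pairs with an S100 protein, was called higher at 3.33 (SE 0.24, adjusted p = 6.17e-07), and with hWJ-MSCs it was the 1 partner called lower, at -1.28 (SE 0.24, adjusted p = 0.0188).

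The signals that draw these cells were compared as well. Ccl2, the ligand of Ccr2, scored 12, 22, 31 and 12 in control, 862, 694, 605 and 795 in Con A + PBS and 421, 93, 294 and 149 in Con A + hWJ-MSCs mice. Ccl2 differed by 5.29 on the log2 scale after Con A and changed by -1.84 with hWJ-MSCs against PBS (SE 0.42, adjusted p = 0.0254). Cxcl2, a ligand of Cxcr2, scored 223, 96, 92 and 436 in Con A + PBS and 34, 9, 38 and 24 in Con A + hWJ-MSCs mice, a log2 fold change of -2.83. Cxcl2 reached 64 in Con A + PBS mice alone, so the direction of this change was fixed by the minimum score and it is given as a description. Of 13 measured chemoattractant, growth factor and adhesion genes 3 were called lower and 0 higher with hWJ-MSCs, Cxcl2 included. Of the 8 that could be seen in control livers 1 was called lower, beside 4.38% of all genes, and Ccl2 is in the table only through Con A mice. In the same livers 0 of the 9 members were called, and the difference between these ligands and the members was not tested.

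Of 15 measured myeloid transcription factors 7 were called higher after Con A and 4 lower, and of the 12 that could be seen in control livers 5 were higher and 4 lower, beside 16.6% higher and 20.5% lower of all such genes. With hWJ-MSCs against PBS 1 of the 15 was called higher and 3 lower, and of the 12 seen in control livers 1 was higher and 2 lower with a median log2 fold change of -0.23, beside 4.20% higher and 4.38% lower of all genes. Spi1, which encodes PU.1, was not called after Con A (log2 fold change -0.15, adjusted p = 0.662). Klf4, a factor of monocyte differentiation that other liver cells also express, scored 4, 9, 2 and 2 in control, 90, 32, 50 and 202 in Con A + PBS and 8, 1, 6 and 12 in Con A + hWJ-MSCs mice. Klf4 differed by 4.02 on the log2 scale after Con A and by -3.55 with hWJ-MSCs against PBS, and Runx1 by 2.48 after Con A. Klf4 and Runx1 did not reach 64 in any control mouse and had to be higher elsewhere to be in the table, and Klf4 reached it in Con A + PBS mice alone, which fixes the direction of both its changes.

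Among the genes outside the list whose log2 scores followed the mean of the 9 members most closely over the 12 mice were Atp1b3 (Pearson r = 0.987), Gstp1 (r = 0.979), Gzma (r = 0.979) and Oas1a (r = 0.978). Gzma (granzyme A), a protease of cytotoxic lymphocytes, scored 4 to 14 in control mice, 120 to 156 with Con A + PBS and 76 to 302 with Con A + hWJ-MSCs. The mice fall into Con A and control livers and share 1 normalization, so these values describe mainly that separation.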

How the data were processed

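Liver RNA of 12 mice was sequenced from poly-A libraries. The authors deposited 1 score per gene and mouse, a whole number already normalized between mice, with 10 genes tied at the largest score in each mouse and totals that differ by 0.0425% of their median. The table holds no raw counts, so the depth and the counting error are unknown and the test planned for counts was not used. The submitters' processing notes name Bowtie2 2.2.1, RSEM 1.2.18 and mm10, without saying how the scores were normalized. The study's methods name DESeq2 with a fold change above 1.5, which was not rerun. Scores were taken as log2(score + 1) (fold changes of low genes are understated on this scale) and limma 3.58.1 was run on them in R 4.3.3 (lmFit, eBayes with trend), with all 12 mice in 1 model and no covariates. The script was tested on simulated data. Differences within a liver were compared by two-sided exact permutation tests in scipy 1.17.1 with Benjamini-Hochberg adjustment.

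Groups and replicate numbers came from the sample titles. The labels say that each group held 4 mice, so replicates are separate animals. In none of the 3 comparisons did every pair of same-numbered mice correlate above 0.1 in their deviations from the group means, and nothing in the labels pairs them, so no pairing was used. The members, the gene lists and the tests were chosen with earlier results of these data known. Named genes are all members, in each list the 2 with the largest called change after Con A without overlap and the 1 with the largest called change with hWJ-MSCs, fixed partners and receptors, and the 5 most alike in pattern, and any other name was chosen after its values were seen. Not all of these are reported here. The fits were repeated with quantile normalization, median centring, no trend, a minimum mean of 100, a pseudocount of 10, only the 8 mice compared, an unadjusted p, a fold change of 2, a replicate block, Ptprc alone in place of the pan-leukocyte mean, and each of 12 mice left out. Promoters were read from RefSeq (GRCm38.p6), which gave 1 for 9 of the 10 genes.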

Additional observations from a re-analysis of the deposited data

Results flagged for a closer look

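In 1 of the 27 groups of 4 mice examined (9 genes in 3 groups), a mouse lay far from the others by Dixon's criterion, and chance gives about 1 in 20 such groups. S100a8 in control mouse 4 had a score of 1, where the other control mice had 16 to 24, and the gap was 0.847 of the group's range on the log2(score + 1) scale. In the same mouse S100a9 scored 12, the lowest of its group.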

How the results depend on the processing

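Of 630 fold changes and differences within a liver under the alternatives, 613 kept their direction and their side of the threshold. Many alternatives leave a fold change as it was, so its direction was fixed in advance. These are median centring, no trend, the minimum mean, only the 8 mice compared, the replicate block and the other thresholds. The same holds where the mouse left out is from a group not compared. In Con A + PBS versus control 6 members were called higher and 1 lower when any single mouse was left out (6 to 6 and 1 to 1) and under the other alternatives except a fold threshold of 2, which lost Fpr2 (0.76) and left 5 higher. With hWJ-MSCs against PBS the count was 0 throughout. In Con A + hWJ-MSCs versus control it was 5 to 6 higher and 1 lower, the sixth being Fcgr4 (0.72) without Con A + hWJ-MSCs mouse 4.

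In 15 cases a value that was not called changed sign. When single mice were left out, the values with hWJ-MSCs against PBS ran from -0.45 to 0.19 for S100a8, -0.27 to 0.061 for Itgam, -0.67 to 6.60e-04 for Lgals3 and -0.19 to 0.30 for Fcgr4, and those of Msr1 in Con A + hWJ-MSCs versus control from -0.10 to 0.18. With a pseudocount of 10, S100a9 minus S100a8 gave 0.27 in place of -0.17 after Con A and 0.033 in place of -0.42 in Con A + hWJ-MSCs versus control. The causes were not tested. With the replicate block S100a8 in Con A + PBS versus control was 5.06 (adjusted p = 3.80e-05) and no member's call changed. Over all genes the block moved the calls with hWJ-MSCs against PBS from 474 higher and 495 lower to 679 and 618. Correlations of same-numbered mice ran from -0.118 to 0.375 and were not above 0.1 for every pair in any comparison, so the numbers were not taken as a pairing. Counts over the marker lists were repeated at an unadjusted p only. Depth is unknown, so no limit from counting error is given.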
